A study of Mus musculus with 7 samples.

Results

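The Sox9, Sox5 and Sox6 loci of the embryonic mouse were described by the Shox2 and Pbx binding sites listed in them. Sites were taken where the midpoint of a peak lay in 1 of 3 windows of the mouse build mm9: chromosome 11 from 111 to 113.5 Mb for Sox9, chromosome 6 from 143.5 to 144.5 Mb for Sox5, and chromosome 7 from 122.4 to 123.5 Mb for Sox6. The windows were set by position, but the loci were chosen with earlier results of these data known. They held 377 of the 82921 peaks in 3 peak lists: 238 at Sox9, 68 at Sox5 and 71 at Sox6.

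The lists came from chromatin immunoprecipitation with sequencing (ChIP-seq) of freshly dissected tissue at E12.5 (E, embryonic day). Shox2 carrying an HA epitope tag was precipitated with an anti-HA antibody from limb and from palate, and Pbx was precipitated from limb with an anti-Pbx antibody. There was 1 library per group, so values carry no replicate error and groups were not tested against each other. The labels state neither the number of embryos per library nor whether the Pbx limbs came from tagged animals. Another 4 libraries of the series were not analysed here: a limb library of Shox2 at E13.5, a limb and palate mix, an input, and a control precipitation with anti-HA from Shox2+/+ mice without the tag. Whole limb and palate hold many cell types, and peak lists carry no expression by which the tissue could be checked. A site listed in 1 tissue alone may be bound in fewer cells or more weakly in the other, and these cannot be told apart.

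Sox9, Sox5 and Sox6 are HMG-box transcription factors that work in sequence in cartilage. Sox9 commits mesenchymal cells to the chondrocyte fate and is required for cartilage to form. Sox5 and Sox6, close relatives of each other that lack a transactivation domain of their own, act downstream with Sox9 at the enhancers of cartilage matrix genes such as Col2a1 and Acan. Sox9 lies in a gene desert whose distant enhancers act in limb, face, gonad and other tissues, and rearrangements far from the gene cause skeletal and palate malformations in people. Shox2 is a homeodomain factor needed for the proximal limb skeleton and for the front of the palate. Pbx proteins are homeodomain factors of the TALE class that commonly serve as DNA-binding partners of other homeodomain factors.

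In the order of protein-coding RefSeq genes, Sox9 has Kcnj2 (a potassium channel gene) on its lower side and Slc39a11 (a zinc transporter gene) on its higher side, predicted Gm genes left aside. Sox5 lies between Etnk1 and Bcat1, and Sox6 between Insc and 1110004F10Rik. Sox9 is transcribed toward higher coordinates, so the side of Kcnj2 is its upstream side. The Sox9 position used here, 112.64 Mb, is approximate and comes from the definition of the window. Gene models of mm9 were not used, so peaks are given by position and are not assigned to exons, introns or promoters.

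Of the 3 windows, that of Sox9 was the densest in Shox2 limb and Pbx peaks. It held 96 Shox2 limb peaks (38.4 per Mb), 102 Pbx limb peaks (40.8 per Mb) and 40 palate Shox2 positions (16.0 per Mb). Over the genome the lists held 13.2, 13.2 and 5.88 peaks per Mb in that order, so the window was 2.91, 3.09 and 2.72 times as dense. Cutting the chromosomes into stretches of 2.5 Mb gave 1030 with a peak of any list, of which 15 had at least as many Shox2 limb peaks, 21 at least as many Pbx peaks and 32 at least as many palate positions. Shox2 limb peaks on Pbx, of which the window held 38 (15.2 per Mb, 4.34 times the genome), were at least as many in 8 of the 1030 stretches.

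Both the Sox5 and the Sox6 window were denser in Pbx than in limb Shox2, and Sox6 stood further above the genome in palate Shox2 than in Pbx. Sox5 held 36 Pbx peaks (36.0 per Mb, 2.73 times the genome) against 23 Shox2 limb peaks (23.0 per Mb, 1.74 times) and 9 palate positions (9 per Mb, 1.53 times). Sox6 held 33 Pbx peaks (30.0 per Mb, 2.28 times), 20 Shox2 limb peaks (18.2 per Mb, 1.38 times) and 18 palate positions (16.4 per Mb, 2.78 times). For Shox2 in the limb, 434 of 2504 stretches as long as Sox5's and 623 of 2297 stretches as long as Sox6's held at least as many peaks, so neither locus stood out by this count. In palate positions the Sox6 window ranked higher, with 143 stretches holding as many or more, than the Sox5 window, with 669. Chromosome 7 as a whole held 7.74 Shox2 limb peaks per Mb, fewer than the genome's 13.2.

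Shox2 limb peaks lay almost all on 1 side of Sox9. On the upstream side, which took up 65.6% of the window, 89 Shox2 limb peaks were listed, and on the side of Slc39a11 there were 7. This is 54.3 against 8.14 per Mb, a ratio of 6.67. The upstream side was thus far above the genome's 13.2 peaks per Mb, and the other side was below it. Pbx in the same tissue was not split this way: 56 peaks lay upstream and 46 on the side of Slc39a11, or 34.1 and 53.5 per Mb. Palate Shox2 positions were split 21 to 19, or 12.8 and 22.1 per Mb, so both other lists were denser where Shox2 in the limb was sparse. The palate positions on the side of Slc39a11 stood lower in their list, at a median of 63.5% from the top against 32.1% upstream.

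**Figure D1:**
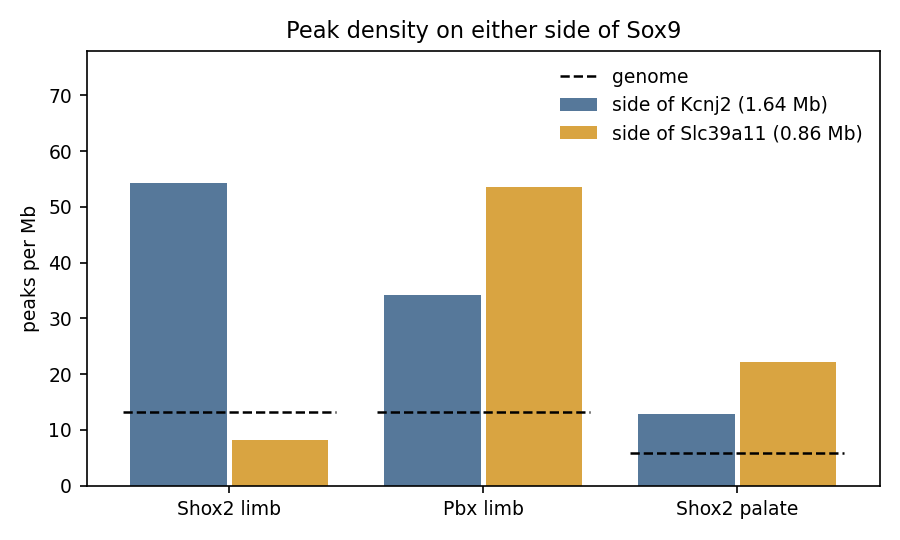
Bars give peaks per Mb (vertical axis) of each list on the 2 sides of Sox9 within the window, and dashed lines the density of the same list over the genome; each list is 1 library. Shox2 limb peaks stand at 54.3 per Mb on the side of Kcnj2 and 8.14 on the side of Slc39a11, while Pbx and palate Shox2 are denser on the side of Slc39a11. In the upper 50% of the palate list the 2 sides are about equally dense (not drawn).

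The same split was taken in every window of 2.5 Mb with at least 20 peaks of a list, at the same point along its length. The upstream side of Sox9 held 92.7% of the Shox2 limb peaks, and 40 of 685 windows had a share at least as high (median 67.7%). For Pbx the share was 54.9%, with a median of 67.4% over 664 windows, and for the palate 52.5%, with a median of 68.0% over 301 windows. Shox2 limb and palate shares at Sox9 differed by 40.2 percentage points. In 12 of 237 windows with enough peaks in both lists (5.06%) the shares were at least as far apart in either direction, and the median gap was 12.7 points. Between Shox2 limb and Pbx the gap was 37.8 points, reached in 18 of 487 windows (3.70%). The Sox9 split was noticed before these windows were compared. In the upper 50% of the palate list 13 of 20 positions lay upstream (65.0%), close to the 65.6% of the length. The palate split was thus not the same along its list, and in that part the 2 sides were about equally dense.

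The Shox2 limb list left a stretch of 325 kb around Sox9 without a peak. It ran from chr11:112519024 to 112844194, beginning 121 kb before the Sox9 position and ending 204 kb after it. The stretch was not without signal in the other lists. It held 11 whole Pbx peaks and 6 palate Shox2 positions, and within 50 kb of the Sox9 position lay 6 Pbx peaks and 4 palate positions against 0 Shox2 limb peaks. None of the 6 palate positions (0) lay in a Pbx peak. The Pbx peaks of the stretch mostly stood low in their list, 7 of 11 in its last 50%.

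Nearest to the Sox9 position was a Pbx peak at chr11:112636804-112637645, 842 bp wide and at 85.3% of the Pbx list counted from the top. The palate position nearest to Sox9 was chr11:112624830, about 15.2 kb upstream, at 32.1% of its list. The nearest Shox2 limb peak, at chr11:112518747-112519023, was 121 kb away and overlapped both a Pbx peak and a palate position. In the whole Shox2 limb list 1404 of the 33895 gaps between neighbouring peaks (4.14%) were as long or longer. The gap at Sox9 was taken because it holds a given point, and a point falls more often in a long gap than in a short one. A stretch this empty around a point is therefore more common than 4.14%, and the share of genome length in such gaps was not taken. In 133 of those 1404 the gap held at least 11 Pbx peaks and at least 6 palate positions, and the medians were 3 and 1.

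**Figure D2:**
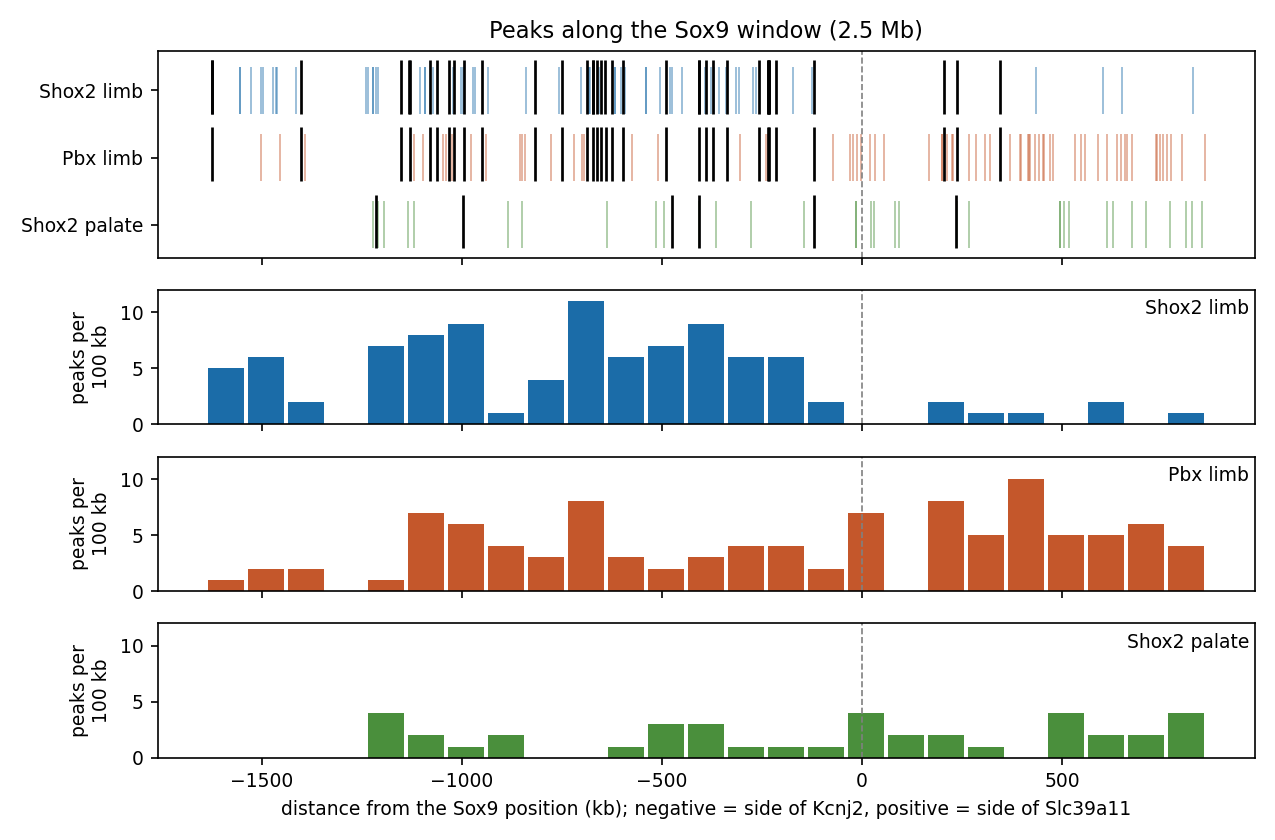
Peaks of the 3 lists along the Sox9 window by distance from the Sox9 position in kb (top; black lines are Shox2 limb peaks on Pbx, Pbx peaks on Shox2 limb and palate positions in a Shox2 limb peak), with counts per 100 kb for each list below. Shox2 limb peaks reach 11 in 1 bin on the side of Kcnj2 and at most 2 in any bin on the side of Slc39a11, and none falls within 100 kb of Sox9.

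Peaks no more than 20 kb apart were joined into runs, which gave 31 Shox2 limb runs in the Sox9 window, 12 of them single peaks. At the upstream density of 54.3 peaks per Mb, many peaks lie that close by density alone. No run count was taken in other stretches as dense, so grouping beyond density was not tested. The run with the most peaks, chr11:111936427-112047217, was 111 kb long and held 17 Shox2 limb peaks, of which 8 lay on Pbx, together with 9 Pbx peaks and 1 palate position. The richest bin of 100 kb, from 111.9 to 112 Mb, held 11 Shox2 limb peaks, 8 Pbx peaks and no palate position (0). The Pbx run with the most peaks lay on the other side of Sox9, at chr11:113033515-113117789, with 11 Pbx peaks, 1 Shox2 limb peak and 0 palate positions. With peaks joined within 10 kb, the fullest Pbx runs had 5 peaks and lay 1 on each side, at chr11:111593318-111621818 with 3 Shox2 limb peaks and at chr11:113374080-113401496 with 0. The first 417 kb of the window, on the side of Kcnj2, held no palate position, although its first 3 bins held 5, 6 and 2 Shox2 limb peaks.

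The widest Pbx peaks of the Sox9 window lay on the side of Slc39a11. All 6 Pbx peaks of at least 2000 bp in the Sox9 window lay there, 6 of 46 (13.0%, interval 4.94 to 26.3%), and 0 of 56 lay upstream, where the widest had 1994 bp. In the whole Pbx list 5.26% of peaks were that wide, which the interval takes in. The median width was 1007 bp there and 910 bp upstream. The widest, chr11:112874434-112877417 with 2984 bp, lay 236 kb beyond Sox9 and held 1 Shox2 limb peak and 2 palate positions. Those highest in the Pbx list were chr11:113081910-113084033 (2124 bp, at 1.73% of the list), which met no peak of the other lists, and chr11:112982141-112984286 (2146 bp, at 1.88%), which met a Shox2 limb peak. Across the 3 loci 7 of 171 Pbx peaks (4.09%) were that wide, close to the share in the whole list.

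Shox2 limb peaks at the 3 loci lay on Pbx peaks more often than in the whole list. Of 139 peaks, 59 overlapped a Pbx limb peak by at least 1 bp (42.4%, 95% exact binomial interval 34.1 to 51.1%), against 26.5% of all Shox2 limb peaks. The counts were 38 of 96 at Sox9 (39.6%), 12 of 23 at Sox5 (52.2%) and 9 of 20 at Sox6 (45%). The intervals treat neighbouring peaks as independent and cover counting only. That of Sox6, 23.1 to 68.5%, took in the share of the whole list, and those of Sox9 (29.7 to 50.1%) and Sox5 (30.6 to 73.2%) did not. The share was 32.2% on all of chromosome 11, 27.2% on chromosome 6 and 29.7% on chromosome 7.

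The windows were also fuller of Pbx. Pbx peaks covered 4.33% of the Sox9 window, 3.40% of the Sox5 window and 2.76% of the Sox6 window, against 1.37% of the genome, and the part this plays in the overlap was not tested. With every peak set to 200 bp around its centre, 39 of 139 Shox2 limb peaks (28.1%) lay on Pbx, against 16.4% in the whole list. At that width the values were 22 of 96 at Sox9 (22.9%), 10 of 23 at Sox5 (43.5%) and 7 of 20 at Sox6 (35%). The interval of Sox9, 15.0 to 32.6%, then took in the share of the whole list. Giving the 139 peaks the whole list's share for their place in the list, decile by decile, would put 28.0% on Pbx at the deposited widths and 17.6% at 200 bp. The deposited list of co-occupied regions named the same 59 Shox2 limb peaks and added no further sites.

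From the other side, 52 of 171 Pbx peaks at the loci overlapped a Shox2 limb peak (30.4%, interval 23.6 to 37.9%), against 23.4% of all Pbx peaks. Sox9 had 32 of 102 (31.4%), Sox5 11 of 36 (30.6%) and Sox6 9 of 33 (27.3%), and each of these 3 intervals took in the share of the whole list. At Sox9 the share followed the split of the Shox2 limb peaks. Upstream, 29 of 56 Pbx peaks (51.8%, interval 38 to 65.3%) met Shox2, and on the side of Slc39a11 3 of 46 did (6.52%, interval 1.37 to 17.9%). The reverse share was close on both sides, with 35 of 89 Shox2 limb peaks on Pbx upstream (39.3%) and 3 of 7 on the other side (42.9%, interval 9.90 to 81.6%). Pbx peaks with Shox2 were wider than those without, with medians of 1114 and 850 bp at the 3 loci, as in the whole list (1068 and 853 bp).

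**Figure D3:**
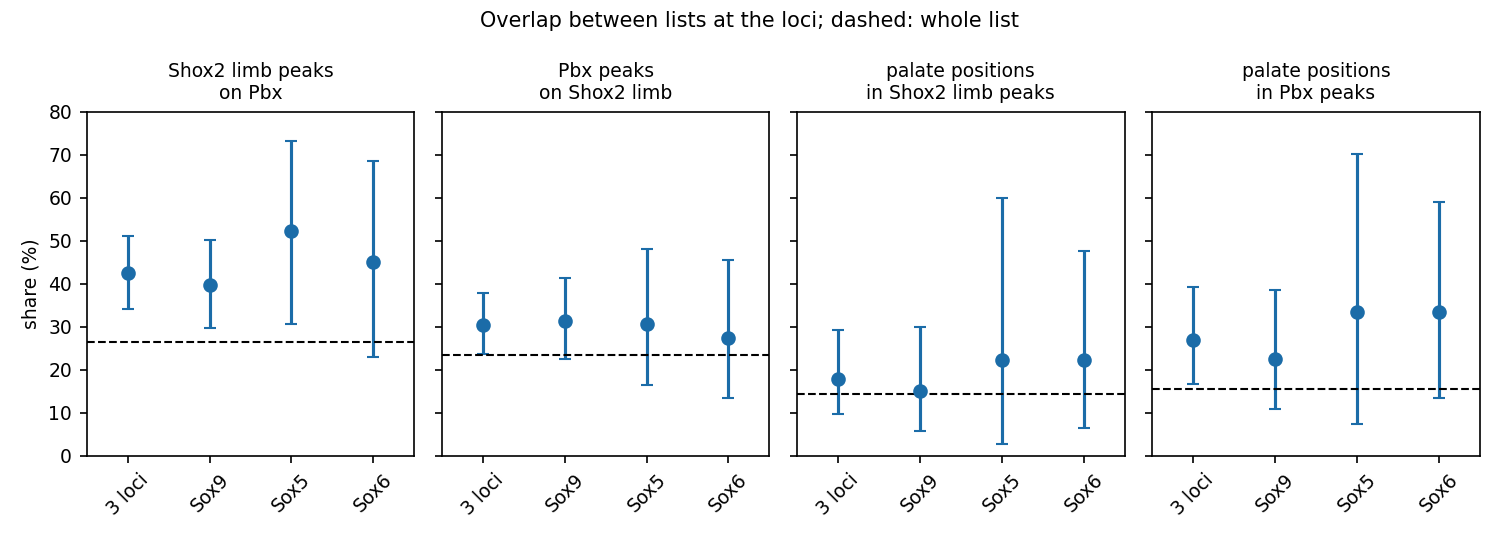
Share of peaks (%) that meet another list, at the 3 loci together and at each locus, with 95% exact binomial intervals that cover counting only; dashed lines give the share in the whole list. Shox2 limb peaks on Pbx stand at 42.4% for the 3 loci against 26.5%, while palate positions in Shox2 limb peaks, 17.9% against 14.2%, have intervals that take in the whole list's share.

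Distances between centres (midpoints of peaks) were taken only where peaks of both factors overlapped, which by itself limits them. The median distance between a Shox2 limb centre and the nearest overlapping Pbx centre was 122 bp at the 59 sites (quartiles 81.0 and 299.5 bp) and 142 bp over the whole list. It was 164.5 bp at Sox9, 106 bp at Sox5 and 34.0 bp at Sox6. The Sox6 value rests on 9 sites, which ranged from 7 to 338 bp. At 7 of the 171 Pbx peaks 2 Shox2 limb peaks or more were met, 6 of them among the 102 Pbx peaks at Sox9. Such Pbx peaks were not counted over the whole list. There 8999 Shox2 limb peaks met 7927 Pbx peaks, close to the ratio of 59 to 52 at the loci.

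Files list peaks in an order that may be a ranking, which they do not state. The members as a whole stood in the middle of the Shox2 limb list, with a median place of 50.2% from the top, and had a median width of 267 bp against 261 bp in the list. Those on Pbx stood higher and were wider, with a median place of 29.8% and 342 bp, than those off Pbx, with 63.0% and 232 bp. The whole list had the same order (33.6% and 326 bp on Pbx, 55.0% and 245 bp off it). At Sox6 the 9 peaks on Pbx were wider than the 11 others (333 and 216 bp) but did not stand higher, with median places of 70.4% and 65.0%. In the first decile of the list stood 21 of the members (15.1% of 139), 14 from Sox9, 4 from Sox5 and 3 from Sox6. Of these 21, 16 lay on Pbx (76.2%), against 55.9% of the whole first decile. With 21 peaks and no interval taken, whether the loci differ from the list here is unknown.

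**Figure D4:**
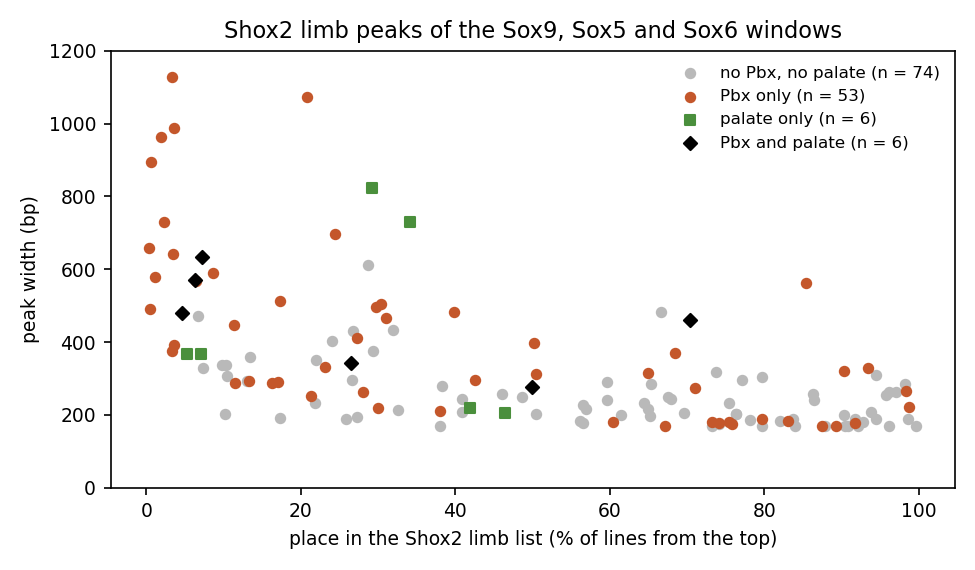
Width in bp (vertical) against place in the Shox2 limb list in % of lines from the top (horizontal) for the 139 Shox2 limb peaks of the 3 loci, by whether they meet a Pbx peak, a palate position, both or neither. Peaks on Pbx have a median place of 29.8% and those off Pbx 63.0%, and 11 of the 12 peaks with a palate position stand in the upper 50%. In the whole Shox2 limb list 1474 of the 2129 peaks with a palate position do.

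Of the first 3 Shox2 limb peaks of each locus in file order, all lay on Pbx but the third at Sox5 and the third at Sox6. At Sox9 they were chr11:111689819-111690712 (894 bp, at 0.655% of the list), chr11:111889107-111889686 (580 bp, 1.16%) and chr11:111608541-111609271 (731 bp, 2.29%), all upstream of the gene, at 950, 751 and 1031 kb from it, and all on Pbx without a palate position. The first of them also met the third Pbx peak of the locus in file order, chr11:111689373-111690567, at 2.40% of the Pbx list. At Sox5 the first was chr6:144261094-144261584 (491 bp, 0.545%), followed by chr6:143538410-143539371 (962 bp, 1.93%), both on Pbx. The third, chr6:143787238-143787605 (368 bp, 7.15%), was not on Pbx and held the palate position chr6:143787362, the third of that list at Sox5. At Sox6 the first was chr7:122554097-122554755 (659 bp, 0.366%), which is the highest of all 139 and lay in the Pbx peak chr7:122553874-122555654 of 1781 bp at 0.669% of the Pbx list, the widest and the highest of Pbx at Sox6. The next, chr7:123048068-123048708 (641 bp, 3.47%), was on Pbx too, and the third, chr7:122644928-122645399 (472 bp, 6.65%), was not.

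Pbx peaks next in file order at Sox5 were chr6:143945759-143946887 (2.83% of the Pbx list) and chr6:144247222-144248713 (3.08%), and both met a Shox2 limb peak. At Sox6 the next were chr7:123471324-123472680 (9.12%), which met neither Shox2 list, and chr7:122522972-122523658 (12.6%), which held a palate position and no Shox2 limb peak.

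Palate Shox2 and limb Shox2 shared few sites. Of 67 palate positions at the loci, 12 lay in a Shox2 limb peak (17.9%, interval 9.61 to 29.2%), against 14.2% of the whole palate list, a difference within the counting interval. They were 6 of 40 at Sox9, 2 of 9 at Sox5 and 4 of 18 at Sox6. Seen from the limb, 12 of 139 Shox2 limb peaks (8.63%, interval 4.54 to 14.6%) held a palate position, against 6.28% in the list. The 12 shared palate positions stood high in their list, with a median place of 12.4%, against 51.0% for the 55 others, and 11 of the 12 were in its first 50%. In the whole palate list the medians were 29.4% and 53.1%, and 1483 of the 2150 shared positions were in its first 50%.

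Palate positions at the loci lay in limb Pbx peaks more often than palate positions of the whole list did. A limb Pbx peak held 18 of the 67 (26.9%, exact interval from 16.8 to 39.1%), and for the whole palate list this was 15.6%. By locus it was 9 of 40 at Sox9, 3 of 9 at Sox5 and 6 of 18 at Sox6. The interval of each locus took in 15.6%. On all of chromosome 11 the share was 17.8%, on chromosome 6 14.5% and on chromosome 7 18.4%. Seen from Pbx, 15 of 171 peaks at the loci held a palate position (8.77%, interval 4.99 to 14.1%). In the whole Pbx list 6.62% did, which that interval took in. Among the 55 palate positions outside Shox2 limb peaks 12 lay in a Pbx peak (21.8%, interval 11.8 to 35%), against 12.1%, the interval taking in that value. The higher share at Sox9 did not hold at every setting: of its 40 positions, 2 (5%) lay within 100 bp of a Pbx centre, against 5.58% of the list, and 4 (10%) lay in the first 50% of Pbx peaks, against 10.4%. At Sox5 0 of 9 lay within 100 bp of a Pbx centre. Whether palate positions met Pbx or Shox2 more often differed by setting. Pbx peaks were wider than Shox2 limb peaks, with medians of 905 and 267 bp. Within 100 bp of a centre it was 8 of 67 for Shox2 limb (11.9%) and 5 of 67 for Pbx (7.46%), and with the first 50% of each limb list it was 11 of 67 for both.

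At 6 places all 3 lists met: 3 at Sox9, 1 at Sox5 and 2 at Sox6. In the whole palate list 2354 of 15091 positions lay in a Pbx peak, and 1572 of those lay outside Shox2 limb peaks. At the loci 18 of 67 lay in a Pbx peak, and 12 of those lay outside Shox2 limb peaks. The rest lay in both, a larger share of positions at the loci than in the whole list. With 6 places and no interval taken, whether the loci differ from the list is unknown. The one at Sox5, chr6:143808213-143808845 (633 bp), stood high in every list, at 7.17% of Shox2 limb, 1.01% of palate (the highest palate position of the locus, chr6:143808369) and 2.52% of Pbx (the highest Pbx peak of the locus). It opened the fullest Shox2 run of the Sox5 window, in which 4 limb peaks lay within 10.4 kb. At Sox6, chr7:122789152-122789493 (342 bp) held the palate position chr7:122789335, at 3.02% of that list, 12 bp from the Shox2 limb centre and 1 bp from the Pbx centre. The other Sox6 site, chr7:122666711-122667172 (462 bp), was low in the Shox2 limb list (70.4%) and held a palate position at 12.9% of its list, 1 bp from the limb centre.

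The 3 sites at Sox9 lay on both sides of the gene. The one at chr11:112232316-112232886 (571 bp, at 6.28% of Shox2 limb) held a palate position at 7.36% of its list, and its Pbx peak of 1405 bp held a second palate position outside the Shox2 peak. The site beyond Sox9, chr11:112875593-112876071 (479 bp, 4.69%), lay in the widest Pbx peak of the locus and held a palate position at 15.0% of its list. It was 1 of the 7 Shox2 limb peaks on that side. The third, chr11:112518747-112519023 (277 bp), was the limb peak nearest to Sox9 and stood at 49.9% of Shox2 limb, 63.5% of palate and 90.4% of Pbx.

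Another 6 Shox2 limb peaks held a palate position without Pbx. In the whole palate list 2150 of 15091 positions lay in a Shox2 limb peak, those on Pbx included. By these counts and those of Pbx given above, the share of positions with limb Shox2 and without Pbx was close to the whole list's. At Sox9 the peaks were chr11:111424423-111425153, chr11:111642452-111643273 and chr11:112165612-112165979, all upstream, with palate positions at 29.7, 17.6 and 27.6% of the palate list. At Sox5 it was chr6:143787238-143787605. At Sox6 they were chr7:122629554-122629759 and chr7:123033483-123033701. The last held chr7:123033624, the highest palate position of all 67, at 0.49% of the palate list, while its limb peak was 219 bp wide and stood at 41.9% of the limb list.

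Palate positions high in their list were also found where limb Shox2 was not listed. The highest at Sox9, chr11:112907734, at 0.842% of the palate list and 268 kb beyond the gene, lay in a Pbx limb peak and in no Shox2 limb peak. The next at Sox9, chr11:111417094 and chr11:111445161 (both at 4.78%), lay in no limb peak of either factor, and they belonged to a run of 4 palate positions with 4 Shox2 limb peaks in 28.1 kb. The other run of 4 palate positions at Sox9, chr11:113133453-113157758 on the side of Slc39a11, was 24.3 kb long and held 0 Shox2 limb and 0 Pbx peaks. At Sox5 the second, chr6:143520546 (7.57%), lay in a Pbx peak alone, and at Sox6 the third, chr7:122597216 (7.49%), lay in none. In total 43 of the 67 palate positions, 74 of the 139 Shox2 limb peaks and 110 of the 171 Pbx peaks met neither of the other lists. Of the whole palate list 12941 of 15091 positions lay outside Shox2 limb peaks, and 1572 of those lay in a Pbx peak. Peaks meeting neither were not counted over the 2 limb lists. There 26.5% of Shox2 limb peaks met Pbx and 6.28% held a palate position. Of Pbx peaks 23.4% met limb Shox2 and 6.62% held a palate position. By these values, meeting neither was not more frequent at the loci than in any whole list, with no interval taken.

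Sites were spread unevenly in the Sox5 and Sox6 windows too. Shox2 limb peaks left the last 336 kb of the Sox6 window empty, where the last 2 bins of 100 kb held 4 and 2 Pbx peaks, and the former also 2 palate positions. The bin of Sox6 richest in Pbx, from 122.5 to 122.6 Mb, held 10 Pbx peaks, 3 Shox2 limb peaks and 3 palate positions. Both of its fullest Pbx runs, with 4 peaks each, lay in that bin. The run at chr7:122514316-122526112 held 2 palate positions and 0 Shox2 limb peaks, and the run at chr7:122553874-122564952 held 2 Shox2 limb peaks and 0 palate positions. The fullest Shox2 limb run of Sox6, chr7:123033483-123080726, had 5 peaks with 1 Pbx peak and 1 palate position. At Sox5 the fullest Pbx run, chr6:143506240-143574975, had 6 peaks with 3 Shox2 limb peaks and 2 palate positions. The longest stretch of Sox5 without a Shox2 limb peak was 136 kb, at the upper end of the window, and the widest Pbx peak, chr6:144157434-144159957 with 2524 bp, held 1 Shox2 limb peak.

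**Figure D5:**
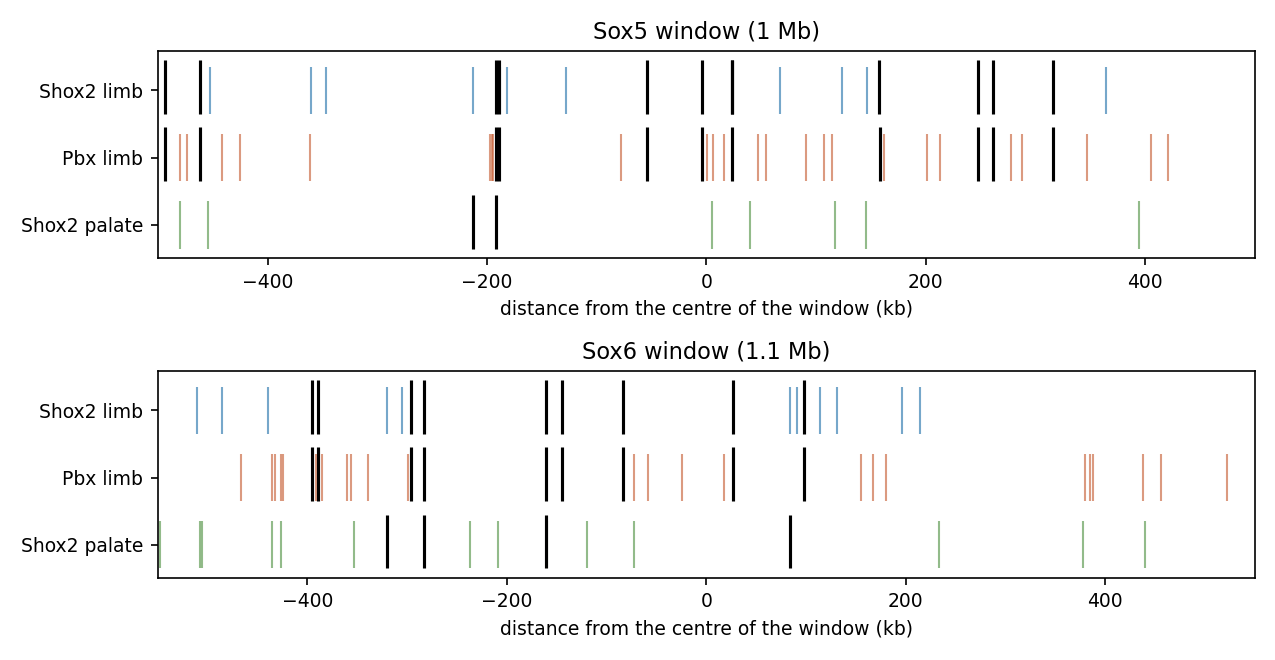
Peaks along the Sox5 and Sox6 windows by distance from the centre of each window in kb; black lines are Shox2 limb peaks on Pbx, Pbx peaks on Shox2 limb and palate positions in a Shox2 limb peak. Of the Shox2 limb peaks 12 of 23 at Sox5 and 9 of 20 at Sox6 are black, and the right end of the Sox6 window holds Pbx peaks and palate positions but no Shox2 limb peak for 336 kb.

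Shox2 limb peaks lay on either side of the windows' edges. Above Sox9 the last inside and the first outside were chr11:113465628-113465810 and chr11:113515982-113516184, and the latter held a palate position. Below Sox5 the first inside was chr6:143506569-143507130 and the last outside chr6:143479349-143479541, and both lay on Pbx. Below Sox6 they were chr7:122438696-122438939 and chr7:122395935-122396181. The stretches empty of Shox2 limb peaks at the upper ends of the Sox5 and Sox6 windows ran on beyond them, to chr6:144545254-144545561 and chr7:123776537-123777020.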

How the data were processed

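Peak lists of 3 ChIP-seq libraries (Shox2 limb, Shox2 palate and Pbx limb, 1 library each) and a list of regions co-occupied by Shox2 and Pbx, as the authors deposited them, were used. Bowtie, MACS2 and the build mm9 are named in the submitters' processing notes. Their versions, the calling settings, cutoffs and controls behind the lists: not given in the sources used here. Peak lists give chromosome, start and end with no height, so depth is unknown, and intervals cover counts of peaks only. Palate entries are 1 bp wide.

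Peaks were assigned by midpoint. Overlap meant at least 1 bp, or for the palate a position inside a peak. Densities were taken over 20 chromosomes, each from its first to its last peak (2567 Mb in all). Place is the line number in percent of the list. Exact (Clopper-Pearson) intervals of 95% are given. Coordinates are 1-based. Neighbouring genes come from the gene order of RefSeq on GRCm38.p6, whose coordinates were not used. No mm9 sequence was used, so none is printed.

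Sites named were those where all lists met, the first 3 of each list per locus, those nearest to Sox9, the widest Pbx peak and the runs of limb peaks with the most members; others were picked after their values were seen. A planned list of cartilage genes was not used, for want of an mm9 annotation. The loci, lists and comparisons were chosen with earlier results of these data known. The split at Sox9 was chosen after it was seen. Overlap code was tested on simulated data. Python 3.11.15, NumPy 2.4.6, pandas 2.3.3, SciPy 1.17.1 and matplotlib 3.10.9 were used.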

Additional observations from a re-analysis of the deposited data

How the results depend on the processing

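In all 13 alternatives for the overlap shares of the 3 loci together, the share stayed above that of the whole list at the same setting. By locus it did so in 34 of 39. With every peak set to 200 bp, 28.1% of Shox2 limb peaks lay on Pbx and 22.8% of Pbx peaks on Shox2, and with at least 50% of a Pbx peak covered, 9.36% did. Of palate positions, 7.46% lay within 100 bp of a Pbx centre and 16.4% in Pbx peaks of the first 50% of the list. Joining peaks within 10 kb in place of 20 kb gave more runs by construction: 50 for Shox2 limb and 65 for Pbx at Sox9, 23 for Pbx at Sox5 and 16 for Shox2 limb at Sox6. In the other 37 checks the value stayed within its counting interval or within 1.5 times. They covered shares, folds, runs and the percent of windows of the same length with fewer peaks. That percent started at 72.9 to 98.5%, so it could not have risen 1.5 times. With the first 50% of the Shox2 limb list, a check chosen after seeing the data, 92.0% of its peaks lay upstream. Moving the Sox9 position by 100 kb either way could not change the Shox2 limb share, since no limb peak lay that near. In the palate these changes, also chosen after seeing the data, gave shares upstream from 47.5 to 65.0%. No paired analysis was possible because there was 1 library per group, and none could be left out. Without heights or cutoffs, absence from a list does not show that a site was unbound.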
